A study of Mus musculus with 14 samples.

Results

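The Frizzled receptor family of the mouse was followed through sorted cells of embryonic dorsal skin. Its members were taken by gene symbol, Fzd1 to Fzd10, and all 10 were found among the 26252 genes listed in the count table. Epithelium of wild-type C57BL/6JOlaHsd embryos at E14.5 was dissociated, and live cells were sorted with an antibody against MAdCAM-1. Positive cells are called placode-enriched and negative cells are called IFE (interfollicular epithelium). There were 7 libraries of each, in 7 pairs that share a title code, and each library came from 3 to 4 pooled littermate embryos. The design sets both populations side by side, pair by pair. No transgene, deletion or treatment is named for any library.

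Frizzled proteins are multi-pass membrane receptors that bind Wnt ligands through a cysteine-rich extracellular domain. Together with the co-receptors Lrp5 and Lrp6 they pass the signal to Dishevelled and stabilise beta-catenin, and some members act with Vangl, Celsr and Prickle proteins in planar cell polarity, which orients hair follicles. Epithelial Wnt and beta-catenin signalling is required for hair placodes to form. The E3 ligases Rnf43 and Znrf3 remove Frizzled proteins from the cell surface, and R-spondins acting through Lgr receptors oppose them.

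The coding sequences are shown where all members share a motif, so that they can be compared. In each of the 10 coding sequences (GENCODE M21, GRCm38) exactly 1 in-frame match was found for the docking motif of Dishevelled, which follows the last membrane span: a lysine codon, a threonine codon, any 3 codons and a tryptophan codon. The 36 bases around it are shown for 8 members, 5′ to 3′, with the lysine, threonine and tryptophan codons in capitals.
Fzd1: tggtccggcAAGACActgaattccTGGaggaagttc
Fzd7: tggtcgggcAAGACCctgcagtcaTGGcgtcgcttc
Fzd5: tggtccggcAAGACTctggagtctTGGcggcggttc
Fzd10: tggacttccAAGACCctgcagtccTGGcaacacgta
Fzd9: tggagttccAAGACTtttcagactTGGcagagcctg
Fzd4: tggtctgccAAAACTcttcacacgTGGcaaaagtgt
Fzd3: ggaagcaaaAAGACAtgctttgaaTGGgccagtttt
Fzd6: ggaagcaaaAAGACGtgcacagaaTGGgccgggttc

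Fzd1 and Fzd2, the latter not shown, were identical at 33 of these 36 bases, the most of any pair compared. Fzd5 and Fzd7 were identical at 30, and Fzd3 and Fzd6 at 29. Fzd1 was identical to Fzd5 at 29 and to Fzd7 at 26, as were Fzd7 and Fzd10. The tail behind the motif was 17 codons long in Fzd1, Fzd2 and Fzd7, 50 in Fzd10, 54 in Fzd9, 55 in Fzd5, 74 in Fzd8 and 33 in Fzd4. It was longest in the planar polarity members Fzd3 and Fzd6, at 159 and 206 codons. In their annotated transcripts, 0 windows of 50 bases were shared between any 2 Frizzled genes, so reads of that length without mismatches match 1 member only. Fzd5 shared 16.4% of its windows, and Fzd6 2.12%, with a gene that overlaps it on the opposite strand. The partner of Fzd5, Gm38058, is a model of unsettled type (TEC) in the annotation, and that of Fzd6, Gm26704, is a lncRNA. The strand setting of the counting is not given in the sources used here, so reads from these partners cannot be told apart.

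Libraries held 23768071 to 49512872 counts. The sort was visible in Madcam1, the gene of the sorted protein, at 36.5 to 66.6 CPM (counts scaled to a common library size, after TMM normalisation) in placode-enriched against 0.171 to 1.23 CPM in IFE libraries. All 10 of 10 hair placode markers rose with it, and 9 epithelial markers summed to 5364 to 6925 CPM there and to 5957 to 7545 CPM in IFE. Markers of other cells moved with the fractions as well, where 31.1% of all genes tested were called. Suprabasal markers summed to 214 to 476 CPM in placode-enriched against 2893 to 4532 CPM in IFE libraries (9 of 9 tested lower), and melanoblast markers to 8.30 to 14.54 against 124 to 222 CPM (8 of 8 lower). Genes associated with fibroblasts summed to 1181 to 1962 against 1096 to 1445 CPM (3 of 9 higher, 3 lower), and Schwann cell and neuron markers to 81.7 to 111 against 144 to 157 CPM (3 of 5 lower). Immune markers summed to 35.5 to 55.4 against 4.40 to 11.4 CPM (2 of 3 higher) and endothelial markers to 1.33 to 4.00 against 0.214 to 1.53 CPM (1 of 1 higher). Several of these sums were carried by 1 or 2 genes each. Cd74 made up most of the immune sum (mean 38.9 against 3.83 CPM), while Ptprc stood at 0.0506 against 0.116 CPM. Erbb3 made up most of the Schwann cell and neuron sum (mean 87.7 against 142 CPM). Postn (mean 1042 against 744 CPM) and Dcn (498 against 258 CPM) made up most of the fibroblast sum. Both were among its 3 higher genes, and the 3 lower were Vim (75.6 against 170 CPM), Col1a1 and Col6a3. Pecam1 made up most of the endothelial sum (mean 1.83 against 0.493 CPM). Of the 6 Merkel cell markers, 1 of 2 tested was higher and 1 lower, with sums of 7.20 to 14.8 against 7.67 to 12.7 CPM. Muscle and erythroid markers reached at most 1.22 CPM in sum, and no listed marker in the table was at 0 in every library. The part of these cells in the Frizzled values below was not tested, and in sorted pools fewer cells of a type and less RNA per cell cannot be told apart.

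Fzd10 rose in the placode-enriched cells and was the most abundant Frizzled gene of both fractions, and Fzd3 and Fzd7 rose by less. Fzd6, Fzd1 and Fzd8 fell. Of the 9 members tested, 6 passed the threshold of 0.05 on the adjusted p, 3 in each direction. P-values came from edgeR (quasi-likelihood, pairs blocked) and were adjusted over 15382 genes, of which 31.1% passed, 15.5% higher and 15.6% lower. The same 6 members passed without the pair block, where 30.5% of all genes did. The median log2 fold change of placode-enriched over IFE was 0.16 over the 9 members and -0.02 over all genes, and the median absolute value was 0.42 against 0.25. Of the called members, Fzd8 and Fzd10 lay near the median absolute log2 fold change of all called genes (0.645), and the other 4 below it. The same direction was seen in 7 of 7 pairs for 5 of the 10 members, against 26.5% of all genes tested.

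**Figure D1:**
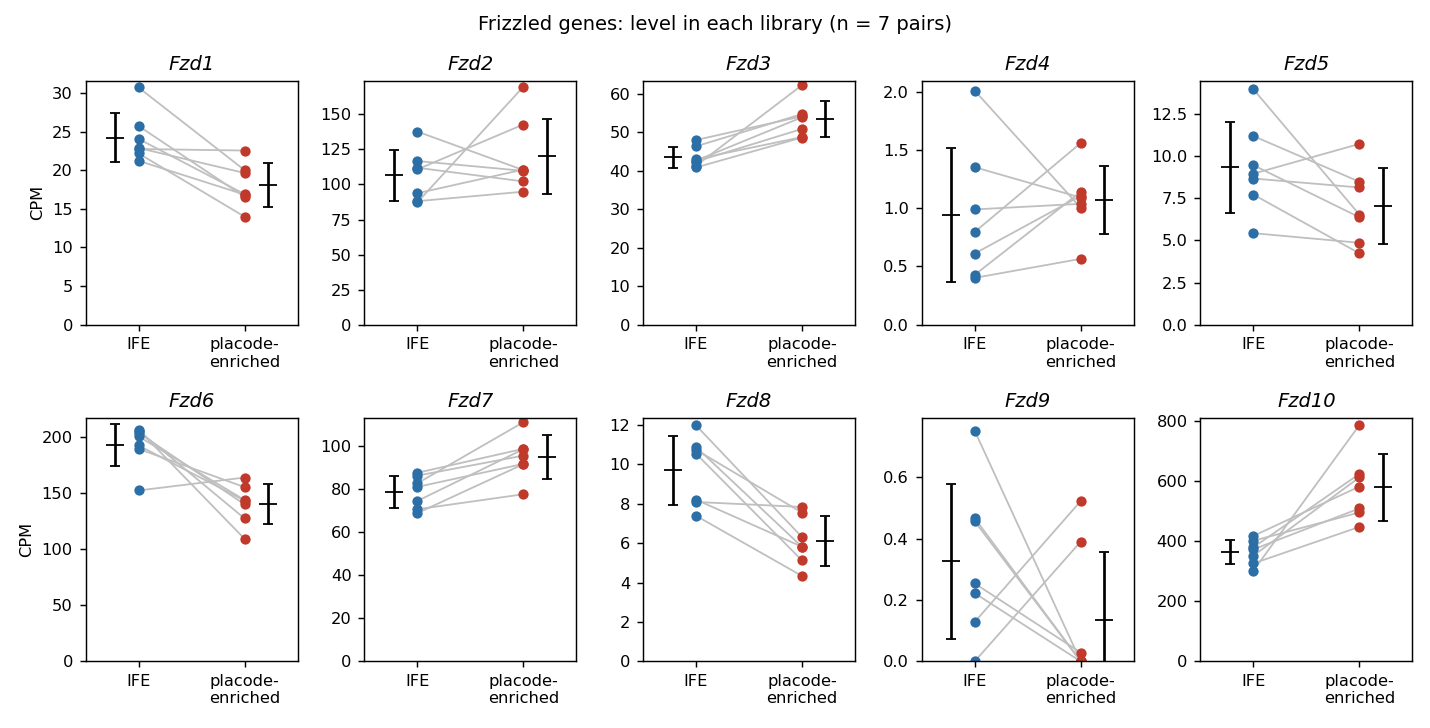
CPM of each Frizzled gene in each library, IFE in blue and placode-enriched in red, with grey lines joining the libraries of a pair and black bars showing mean ± SD (n = 7 each). All 7 lines rise for Fzd3, Fzd7 and Fzd10 and all 7 fall for Fzd1 and Fzd8, while the fractions are separate without overlap for Fzd3 and Fzd10.

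Fzd10 (ENSMUSG00000081683; GRCm38 chr5:128600844-128604093, plus strand, a single exon) encodes a receptor known from beta-catenin signalling. Its placode-enriched libraries ranged from 447 to 786 CPM with a median of 581, and its IFE libraries from 301 to 417 CPM with a median of 372. The lowest placode-enriched library lay above the highest IFE library, a separation seen for 2 of the 10 members and for 14.8% of all genes tested. Means were 579 ± 112 and 364 ± 40.9 CPM (SD, n = 7 each), a log2 fold change of 0.65 with an approximate SE of 0.11 (edgeR adjusted p = 0.000515), or 57.4% higher. The pair differences ranged from 0.30 to 1.38 on the log2 scale (median 0.48), and the widest belonged to pair 27-7-2, which held both the highest placode-enriched and the lowest IFE value. Without that pair the log2 fold change was 0.53 (edgeR adjusted p = 0.000134).

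Fzd7 and Fzd3 rose by a smaller step, in 7 of 7 pairs each. Fzd7 (ENSMUSG00000041075; chr1:59482424-59486955, plus strand, a single exon), a receptor of the same subgroup as Fzd1 and Fzd2, ranged from 77.5 to 111 CPM (median 95.4) in placode-enriched and from 68.8 to 87.5 CPM (median 80.9) in IFE libraries. The ranges overlapped, yet each pair differed by 0.14 to 0.43 on the log2 scale in the same direction. Its log2 fold change was 0.27 ± 0.07 (edgeR adjusted p = 0.00941). Fzd3 (ENSMUSG00000007989; chr14:65192449-65262463, minus strand, 8 merged exons), a planar polarity receptor, ranged from 48.6 to 62.2 CPM (median 53.8) against 40.8 to 47.9 CPM (median 42.6), without overlap, and its pairs differed by 0.17 to 0.59. Its log2 fold change was 0.29 ± 0.07 (edgeR adjusted p = 0.00880).

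Fzd6 fell while Fzd3, its partner in planar polarity and the member most like it in the sequence around the motif, rose. Fzd6 (ENSMUSG00000022297; chr15:39006034-39038188, plus strand, 9 merged exons) ranged from 109 to 164 CPM (median 143) in placode-enriched and from 152 to 207 CPM (median 201) in IFE libraries. In IFE, 6 libraries lay between 189 and 207 CPM and replicate 3 stood apart at 152 CPM, and the pair that holds it was the only one in which Fzd6 was higher in the placode-enriched library (by 0.11 on the log2 scale). The log2 fold change was -0.46 ± 0.10 (edgeR adjusted p = 0.00350), and without that pair it was -0.56 (edgeR adjusted p = 0.000126; 33.9% of all genes called). Pair 27-7-2 held the lowest placode-enriched value and the widest difference (-0.92). Without pair 27-7-2 the log2 fold change was -0.39 (edgeR adjusted p = 0.00433). The 152 exonic bases that Fzd6 shares with its opposite-strand neighbour were counted with no stated strand setting.

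Fzd1 fell in the placode-enriched cells, whereas Fzd7, of the same subgroup, rose and Fzd2, also of that subgroup, did not pass. Fzd1 (ENSMUSG00000044674; chr5:4753839-4758035, minus strand, a single exon) ranged from 13.98 to 22.5 CPM (median 16.9) against 21.2 to 30.7 CPM (median 22.9). The pairs differed by -0.66 to -0.01 on the log2 scale, the smallest gap being in pair 27-7-2, and the log2 fold change was -0.43 ± 0.10 (edgeR adjusted p = 0.00563). Fzd8 (ENSMUSG00000036904; chr18:9212163-9218136, plus strand, a single exon) is a receptor of the Fzd5 subgroup. It ranged from 4.34 to 7.84 CPM (median 5.82) against 7.40 to 11.99 CPM (median 10.6), or -0.67 ± 0.15 as log2 fold change (edgeR adjusted p = 0.00355), or 37.2% lower. Its counts were few, at 108 to 399 per library, and the pair differences spread from -1.03 to -0.05.

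The remaining members did not pass. Fzd2 (chr11:102604396-102608058, plus strand, a single exon), the second member of the Fzd1 subgroup, ranged from 94.8 to 170 CPM (median 110) against 87.1 to 138 CPM (median 111), and was higher in 4 pairs and lower in 3. Its log2 fold change was 0.16 ± 0.12 (edgeR adjusted p = 0.384), and a span of 2 SE around it reached from -0.09 to 0.41. Without pair 27-7-2 it was 0.03 (edgeR adjusted p = 0.866). Fzd5 (chr1:64730558-64737751, minus strand), a receptor of the Fzd8 subgroup, ranged from 4.23 to 10.7 CPM (median 6.53) against 5.43 to 13.97 CPM (median 8.96). Its log2 fold change was -0.42 ± 0.17 (edgeR adjusted p = 0.0791), with lower values in 6 of 7 pairs. It passed without pair 1-6-3, the only pair in which it was higher (-0.53, edgeR adjusted p = 0.0466, with 25.7% of all genes called). With any other single pair left out it did not pass (edgeR adjusted p from 0.0907 to 0.203). Its 1233 exonic bases shared with the opposite-strand gene Gm38058 leave its level uncertain. Fzd4 (chr7:89404355-89413134, plus strand), which also serves as the receptor of the ligand Norrin, was close to the limit of these libraries at 12 to 48 counts. It ranged from 0.565 to 1.56 CPM (median 1.09) against 0.402 to 2.01 CPM (median 0.796), and its log2 fold change was 0.35 ± 0.40 (edgeR adjusted p = 0.569) and a span of 2 SE from -0.45 to 1.139.

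Fzd9 (chr5:135248938-135251230, minus strand) held too few counts for the test, 34 over the placode-enriched and 79 over the IFE libraries. It had 0 counts in 4 placode-enriched libraries and in 1 IFE library, which allows levels of up to 0.0885 to 0.118 CPM there (3 counts, counting error only). Elsewhere it reached at most 0.522 CPM among placode-enriched libraries and 0.751 CPM among IFE libraries. With DESeq2, which tested it, Fzd9 was lower in the placode-enriched cells at a log2 fold change of -3.96 (DESeq2 adjusted p = 0.0185; 28.8% of all genes called), whereas edgeR without a filter on low counts gave -2.91 (edgeR adjusted p = 0.283; 17.8% called). The fitted sizes depend on libraries at 0, and the placode-enriched libraries of replicates 1 and 3 held 13 and 20 counts against 3 and 0 in their IFE partners.

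**Figure D2:**
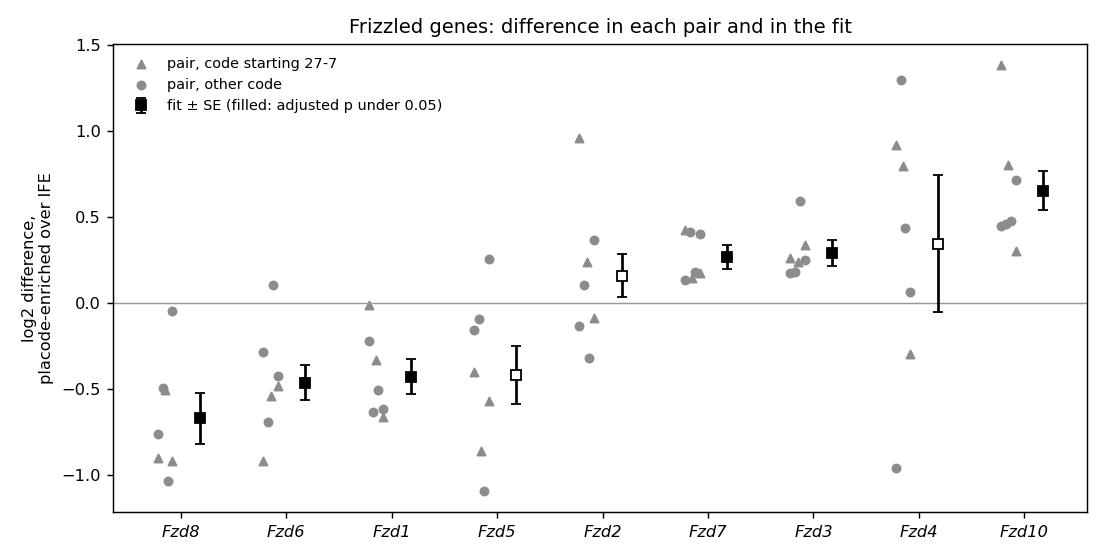
Log2 difference of placode-enriched over IFE for the 9 tested Frizzled genes, in each pair (grey, triangles for the 3 pairs with title codes starting 27-7, circles for the 4 other pairs) and in the fit over all pairs (squares with SE, filled where the adjusted p is under 0.05). Pairs lie closest together for Fzd7 and Fzd3, and the widest pair of Fzd10 stands at 1.38.

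The title codes fall into 3 pairs that start with 27-7 and 4 others, and the labels do not say what the codes stand for. In the 27-7 pairs alone, Fzd10 (0.83, edgeR adjusted p = 0.0270), Fzd6 (-0.64, 0.0136) and Fzd8 (-0.78, 0.0437) passed, 3 of 9 members against 14.9% of all genes. In the other pairs alone, Fzd10 (0.53, edgeR adjusted p = 0.00269) and Fzd1 (-0.50, 0.0222) passed, 2 of 9 against 19.9%. The 6 members that passed over all pairs had the same sign in both sets, and Fzd2 stood at 0.37 in the 27-7 pairs (edgeR adjusted p = 0.259) and at 0.00 in the others (0.986). Fzd3 stood at 0.28 and 0.30 and Fzd7 at 0.25 and 0.28 in the 27-7 and the other pairs, without passing in either set (edgeR adjusted p of 0.145 and 0.0991 for Fzd3, and 0.187 and 0.0830 for Fzd7). Fzd6 and Fzd8 stood at -0.33 and -0.59 in the other pairs, and Fzd1 at -0.33 in the 27-7 pairs, where they missed the threshold (edgeR adjusted p of 0.0998, 0.0915 and 0.256). A test of the difference between the sets called 0 members and 0.0% of all genes in edgeR, with 0 members and 528 genes at an unadjusted p under 0.05.

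Per kilobase of exon the members spanned a wide range in both fractions, and Fzd10 stood far above the rest. In placode-enriched libraries Fzd10 was at 178 ± 34.4 CPM per kilobase (SD, n = 7), 5.46 times Fzd2 at 32.8 ± 7.24. Fzd6 stood at 29.2 ± 3.73, higher than Fzd2 in 3 of 7 libraries, Fzd7 at 20.9 ± 2.22, Fzd1 at 4.31 ± 0.675, Fzd3 at 4.16 ± 0.365, Fzd8 at 1.02 ± 0.210, Fzd5 at 1.02 ± 0.324, Fzd4 at 0.160 ± 0.0432 and Fzd9 at 0.0586 ± 0.0974. These levels form steps: Fzd10 alone, then Fzd2, Fzd6 and Fzd7, then Fzd1 and Fzd3, then Fzd8 and Fzd5, with Fzd4 and Fzd9 near the limit of detection.

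In IFE libraries Fzd10 was at 112 ± 12.6 CPM per kilobase, 2.79 times Fzd6, which took the second place at 40.1 ± 3.96, ahead of Fzd2 at 29.1 ± 4.99. Fzd7 stood at 17.4 ± 1.65, Fzd1 at 5.77 ± 0.763, Fzd3 at 3.39 ± 0.207, Fzd8 at 1.62 ± 0.294, Fzd5 at 1.35 ± 0.389, Fzd9 at 0.142 ± 0.110 and Fzd4 at 0.140 ± 0.0859. Neighbours in each order were compared within libraries with a two-sided exact test that flips signs over the 7 libraries, adjusted over the 15 neighbour pairs without Fzd9, which held libraries at 0. Of these, 11 differed. The 4 that did not were Fzd2 and Fzd6 (exact adjusted p = 0.523), Fzd1 and Fzd3 (0.770) and Fzd8 and Fzd5 (0.906) in placode-enriched libraries, and Fzd8 and Fzd5 (0.0977) in IFE. Fzd1 exceeded Fzd3 by 1.69 times in IFE and in 7 of 7 libraries (exact p = 0.0156, the smallest that 7 libraries allow; adjusted 0.0260).

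**Figure D3:**
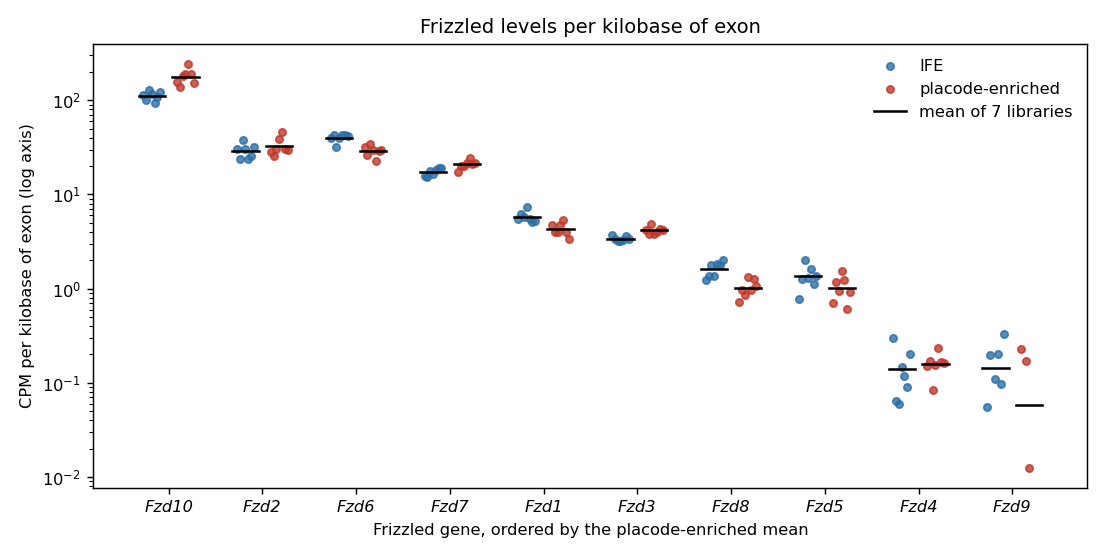
CPM per kilobase of exon on a log axis for each Frizzled gene and library, IFE in blue and placode-enriched in red, with a black line at the mean of 7 libraries. Libraries at 0, all of them for Fzd9, have no point; Fzd10 lies above all others in both fractions, and Fzd2 and Fzd6 overlap in placode-enriched libraries.

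The makeup of the family shifted with these changes. Fzd10 held 62.5% to 69.7% of the summed per-kilobase Frizzled level in placode-enriched libraries (65.2% ± 2.62, SD, n = 7) and 48.8% to 56.2% in IFE libraries (53.0% ± 2.38), higher in 7 of 7 pairs and without overlap. Fzd6 held 6.53% to 13.2% against 13.9% to 22.6%, lower in 7 of 7 pairs and without overlap. In the pair of replicate 3 this share fell while the CPM of Fzd6 was higher in the placode-enriched library, since a share also falls when Fzd10 rises. Shares of Fzd1 (at most 1.91% against at least 2.31%) and Fzd8 (at most 0.453% against at least 0.585%) were likewise lower in 7 of 7 pairs without overlap. That of Fzd5 was lower in 7 of 7 pairs with overlap. Fzd2 held 11.98% ± 1.03 against 13.7% ± 1.49, lower in 6 of 7 pairs. Shares of Fzd7 (7.78% ± 0.890 against 8.25% ± 0.850) and Fzd3 (1.56% ± 0.250 against 1.62% ± 0.162) overlapped although their CPM rose. The summed level was 220 to 347 CPM per kilobase in placode-enriched and 190 to 229 in IFE libraries, higher in 7 of 7 pairs, and Fzd10 carried most of it.

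The ratio of Fzd10 to Fzd6 counts, which does not depend on how libraries are scaled and was chosen after the values were seen, lay between 3.27 and 7.19 (median 3.54) in placode-enriched and between 1.46 and 2.74 (median 1.96) in IFE libraries. It was higher in the placode-enriched library of 7 of 7 pairs, by 1.12 ± 0.61 on the log2 scale (SD, n = 7). Its widest gap was again in pair 27-7-2, at 7.19 against 1.46, and its narrowest in pair 18-5, at 3.54 against 2.74.

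Fzd1 and Fzd7, members of a subgroup that differed in opposite directions, were also compared in the 250 bases before their annotated start (RefSeq, GRCm38.p6). Of the 10 members 6 had such a sequence, but the windows of Fzd9 and Fzd10 lie largely or wholly inside the GENCODE gene and those of Fzd4 and Fzd5 reach its edge, so only Fzd1 and Fzd7 were compared. The windows of Fzd1 and Fzd7 end short of the GENCODE gene. That of Fzd1 ends at 4758217 with the gene starting at 4758035, and that of Fzd7 at 59482146 with the gene starting at 59482424. Capitals mark the core CTTTG of TCF and LEF binding sites, the factors through which beta-catenin acts, or its reverse complement CAAAG.
Fzd7, chr1:59481897-59482146, plus strand: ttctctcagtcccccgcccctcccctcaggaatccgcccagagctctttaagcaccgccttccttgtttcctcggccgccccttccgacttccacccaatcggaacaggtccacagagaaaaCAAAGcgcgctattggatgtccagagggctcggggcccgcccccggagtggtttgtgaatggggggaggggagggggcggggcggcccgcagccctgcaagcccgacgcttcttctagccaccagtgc
Fzd1, chr5:4758217-4758466, minus strand: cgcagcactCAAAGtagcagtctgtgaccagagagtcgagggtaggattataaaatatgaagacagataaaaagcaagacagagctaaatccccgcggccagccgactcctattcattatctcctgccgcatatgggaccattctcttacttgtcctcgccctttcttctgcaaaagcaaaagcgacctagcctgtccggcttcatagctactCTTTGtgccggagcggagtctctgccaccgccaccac

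Searched on both strands, the core CTTTG occurred 2 times before Fzd1 and 1 time before Fzd7. It stands in 48.6% of 32851 promoters of the same length, so these matches are ordinary. The longer form CTTTGA occurred 1 time before Fzd1 and 0 times before Fzd7, and stands in 13.8% of promoters. The GC box GGGCGG, counted on both strands with overlapping matches, occurred 6 times before Fzd7 and 0 times before Fzd1, and stands in 32.7% of promoters. Bases G and C made up 65.2% of the Fzd7 and 51.2% of the Fzd1 window, against a median of 52.4% over all promoters. These are matches of letters, with no binding measured.

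Among genes of Frizzled turnover, 6 of 6 tested passed, against 31.1% of all genes. Of them 5 rose and 1 fell, with a median log2 fold change of 0.60. Lgr6, an R-spondin receptor, stood at 164 ± 24.6 against 30.0 ± 4.02 CPM (2.45 ± 0.08), and Lgr4, its relative, at 164 ± 21.7 against 91.9 ± 7.29 CPM (0.83 ± 0.09). The ligand gene Rspo1 was low but higher in placode-enriched cells (3.12 ± 0.598 against 0.990 ± 0.333 CPM, 1.70 ± 0.26), and Rspo3 fell from 1.504 ± 0.798 to 0.242 ± 0.266 CPM (-2.81 ± 0.79). The ligase genes Znrf3 (0.37 ± 0.07) and Rnf43 (0.29 ± 0.08), which act against Frizzled proteins, rose as well.

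Of 6 tested co-receptors and other Wnt receptors, 3 rose and 3 did not pass (median 0.11), against 31.1% of all genes called. Ptk7, a pseudokinase receptor of Wnt and polarity signalling, rose by 0.47 ± 0.09 and Lrp6 by 0.22 ± 0.07, and Ror2, a receptor of Wnt5a, rose from 0.223 ± 0.141 to 1.27 ± 0.450 CPM (2.64 ± 0.60). Lrp5 stood at 151 ± 44.3 against 148 ± 27.8 CPM (0.00 ± 0.09, edgeR adjusted p = 0.996). In the list of Dishevelled and partners, 4 of 14 rose, 1 fell and 9 did not pass (median 0.20), a share near the 31.1% of all genes. Csnk1e, a kinase of Dishevelled, rose by 0.68 ± 0.07, the scaffold gene Magi3 by 0.61 ± 0.08 and Arrb2, a beta-arrestin, by 0.37 ± 0.13, while Gipc1, an adaptor of trafficking, fell (-0.28 ± 0.09). Of the 3 Dishevelled genes, Dvl3 rose (0.28 ± 0.08), and Dvl1 (-0.30 ± 0.12) and Dvl2 (0.22 ± 0.10) did not pass.

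Of 8 tested planar polarity partners of Fzd3 and Fzd6, 2 rose and 6 did not pass (median 0.00), a share no higher than the 31.1% of all genes. Prickle1 rose by 0.35 ± 0.08 and Vangl2 by 0.31 ± 0.07, each in 7 of 7 pairs. Celsr1, the most abundant of the list in CPM, stood at 673 against 689 CPM (-0.05 ± 0.08, edgeR adjusted p = 0.695). Of 17 tested Wnt ligand and secretion genes, 6 rose, 4 fell and 7 did not pass (median 0.23), against 31.1% of all genes called. Wnt10b rose from 50.3 ± 5.70 to 154 ± 33.3 CPM (1.60 ± 0.12), Wnt2b from 0.173 ± 0.197 to 5.05 ± 0.728 CPM (5.11 ± 0.56) and Wnt5b by 0.62 ± 0.16, whereas Wnt16 fell (-1.43 ± 0.11).

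Genes with a Frizzled-type domain outside the family were few. With 31.1% of all genes called, counts in the short lists below, of 2 to 5 tested genes each, say little about their members. Sfrp1, a secreted decoy that binds Wnt ligands, rose from 9.35 ± 0.960 to 19.95 ± 2.31 CPM (1.09 ± 0.11), as 1 of 2 tested decoys. Smo, the Hedgehog signal transducer and nearest relative of the Frizzled receptors, rose from 52.6 ± 5.10 to 81.2 ± 10.9 CPM (0.62 ± 0.08), a log2 step close to that of Fzd10, and the carboxypeptidase gene Cpz rose at low level (2.25 ± 0.44), so that 2 of 3 passed. Of 3 tested partners of Fzd4, Adgra2, which works with Reck in Wnt7 signalling, fell from 3.21 ± 0.805 to 0.255 ± 0.197 CPM (-3.83 ± 0.50), and 2 did not pass. Of 5 genes of Frizzled maturation, Shisa2, which retains Frizzled proteins in the endoplasmic reticulum, fell (-2.16 ± 0.40), the cargo receptor gene Tmed5 fell (-0.70 ± 0.11) and Shisa5 rose (0.33 ± 0.09).

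**Figure D4:**
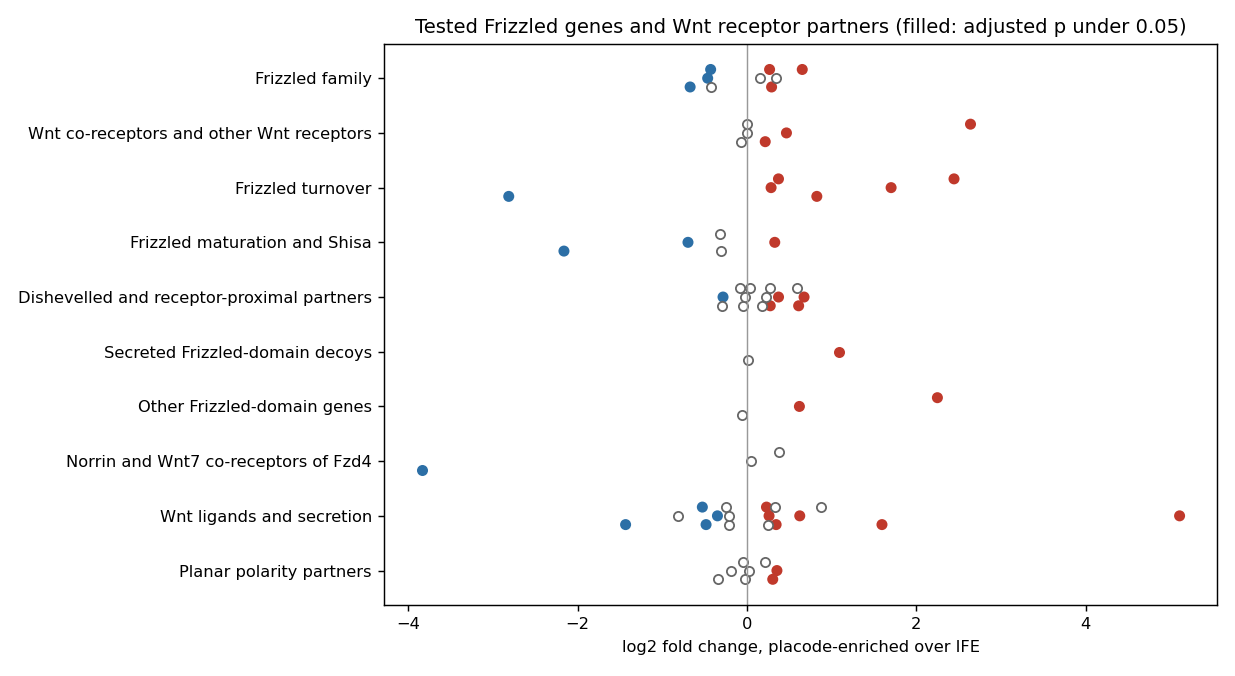
Log2 fold change of placode-enriched over IFE for each tested Frizzled gene and for 9 lists of related genes, filled red (higher) or blue (lower) where the adjusted p is under 0.05 and open otherwise. The Frizzled genes lie between -0.67 and 0.65, a narrower span than that of the Wnt ligands, which reach from -1.43 to 5.11.

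For the 6 members that passed, the genes whose log2 CPM profile over the 14 libraries came closest after centring were found among 10228 others, by the root mean square difference between profiles. For Fzd10 they were Sall2 (0.103 log2 units) and Mical1 (0.104), against a median over all genes of 0.461. They were Adar (0.0601) and Ddx39b (0.0672) for Fzd7, and Smad5 (0.0790) and Myo5a (0.0793) for Fzd3. For Fzd6 they were Cpd (0.0897) and Col4a3bp (0.0914), for Fzd1 Slc29a1 (0.134) and Txndc11 (0.151), and for Fzd8 Snhg15 (0.152). Each gene named here differed between the fractions in the same direction as their Frizzled gene, which the measure itself favours.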

How the data were processed

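The authors deposited raw read counts per Ensembl gene for 14 libraries, as whole numbers. Per the submitters' processing notes the tools were bcl2fastq (2.17.1.14), FastQC, MultiQC, Trimmomatic, HTSeq and STAR, whose version is listed as 1.5, and the builds named are mm10 and GRCm38. Which annotation and strand setting were used, and how duplicate reads were treated, is not given in the sources used here, so intervals and floors cover counting error only. Per the labels' protocols, RNA came from sorted cells and libraries were made with the Ovation SoLo kit.

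Symbols and positions were taken from GENCODE M21 (GRCm38), which matched 25949 of 26252 identifiers. The count test was run in R 4.3.3 with edgeR 4.0.16 and limma 3.58.1, and summaries in Python 3.11.15 with pandas 2.3.3, numpy 2.4.6 and matplotlib 3.10.9. filterByExpr left 15382 genes, TMM set the library scaling, and robust quasi-likelihood tests compared the fractions with pairs as blocks. The Benjamini-Hochberg adjustment covered all genes tested, with a threshold of 0.05. Standard errors are approximate and were obtained from the unshrunk coefficient and the F statistic. Log2 values for each library were made with a prior count of 2. The procedure was tested on simulated counts that held no pair effects, so the pair block was not checked.

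The pairs come from the design text and the shared title codes. Within a pair, deviations from the fraction means had a mean correlation of 0.0548 across genes, from -0.132 to 0.195, and exceeded 0.1 in 2 pairs. The spread behind each p-value of the paired edgeR fit is that of the difference between the fractions from pair to pair. The exact test of the order of levels used ratios of neighbouring genes within the libraries of a fraction. Libraries of a group differed beyond counting noise, which does not by itself show that the pools were independent. Each was counted as its own sample, following the pairs of the design text.

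Levels between genes were compared per kilobase of merged exons. The named genes are the Frizzled genes, Madcam1, up to 4 passing members of each related list with the largest change, and the 2 nearest profiles of each passing Frizzled gene among named genes with a mean of at least 5 CPM. Dvl1 to Dvl3, Lrp5, Celsr1, Znrf3 and Rnf43 fall outside that rule and were added after their values were seen. Some items that these rules would name are not reported here. The members and lists were chosen with earlier results of these data known. Alternatives were no pair block, 3 other scalings, 2 other filters, DESeq2 1.42.0, limma-voom, each pair left out, each set of title codes alone and, for the order of levels, the longest transcript.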

Additional observations from a re-analysis of the deposited data

Results flagged for a closer look

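In IFE replicate 3, Fzd6 stood at 152 CPM, far below the 6 other IFE libraries at 189 to 207 CPM. The gap exceeds the 95% limit of Dixon's test for 7 samples, which chance passes in about 1 of 20 groups, and 20 groups were examined here.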

How the results depend on the processing

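Over 17 alternatives, none of the 9 tested Frizzled genes changed sign, although Fzd2 fell to 0.03 without pair 27-7-2 and to 0.00 in the pairs of other codes. The 6 calls held under all alternatives that used the 7 pairs, and with each pair left out in turn. The count of Frizzled genes called was 6 with no replicate block and 6 to 7 with 1 pair left out, and the count over all genes was 4689 with no replicate block and 3953 to 5229 with 1 pair left out. The paired fit and the fit without the block gave the same 6 Frizzled calls, with Fzd10 at 0.67 without the block. With the 3 pairs of 27-7 codes alone, 3 Frizzled genes and 2331 genes in all were called, and with the 4 other pairs alone 2 and 3087, where fewer samples entered. DESeq2 called 7, with Fzd9 added. Exon lengths from the longest transcript left 11 neighbours in the order of levels different, but Fzd2 then exceeded Fzd6 in 2 of 7 placode-enriched libraries (mean log2 ratio -0.00) in place of 4, so their order there is not settled. Depth limited Fzd4 and Fzd9, which had at most 48 and 25 counts in a library.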
